A study of Mus musculus with 12 samples.

Results

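Cytochrome P450 families 1 to 3 hold the haem enzymes that hepatocytes use to oxidise drugs, toxins, steroids and fatty acids. The members were all rows of the liver count table whose mouse symbol begins Cyp1, Cyp2 or Cyp3 followed by a subfamily letter and a number, and that had 10 or more counts in 2 or more of the 12 libraries. Of 55357 rows in the table, 58 carried such a symbol and 45 passed the count rule, in 14 subfamilies; the other 13 had at most 9 counts in any library and are not described further. All 45 members passed the low-count filter of the test, so none was lost before it. The RNA came from livers of male C57BL/6J mice put on the diets at 7 weeks of age and killed at 13 weeks, after 6 weeks of chow or of CDAHFD, a choline-deficient, amino acid-defined high fat diet that is used to bring on steatohepatitis. The KO animals were PPARa fl/fl AlbuminCre Tg/+ and the WT animals PPARa fl/fl AlbuminCre +/+, so that every mouse carried the floxed Ppara allele and the albumin promoter restricted Cre, and with it the deletion, to hepatocytes. There were 4 WT chow, 3 WT CDAHFD, 2 KO chow and 3 KO CDAHFD libraries, each labelled as a separate sample. The study's methods describe groups of equal size, which these labels do not give. The labels were followed, and the values of every group rest on them. The comparisons ask how loss of the fatty acid receptor PPARα in hepatocytes, the diet, and both together shift the expression of these enzymes.

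Most members of these families sit in the endoplasmic reticulum and take electrons from the reductase encoded by Por. Their genes are under the xenobiotic receptors AhR (Cyp1), CAR and PXR (Cyp2b, Cyp2c, Cyp3a), under growth hormone, which sets the male or female level of many Cyp2 genes in mouse liver, and in part under the circadian clock. Several of them, Cyp2e1, Cyp1a2 and part of Cyp2c among them, are known for expression around the central vein of the liver lobule. The genes lie in clusters of near copies, the Cyp2a, Cyp2b, Cyp2f, Cyp2g and Cyp2s genes on chromosome 7, Cyp2c on chromosome 19, Cyp2d on chromosome 15, Cyp2j on chromosome 4 and Cyp3a on chromosome 5.

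Levels are given in CPM, read counts scaled to a common library size by TMM, and differences as log2 fold changes with their standard error (SE) and the adjusted p of edgeR's quasi-likelihood test over 17358 genes. The libraries held 29906785 to 43551003 counts. Ppara, the deleted gene, was at 120.0, 96.2, 238 and 226 CPM in WT chow, 59.5, 75.5 and 73.5 in WT CDAHFD, 14.4 and 38.7 in KO chow and 36.3, 20.7 and 51.9 in KO CDAHFD, so that no KO library reached the level of a WT library. The hepatocyte markers were present in all libraries, the kidney markers together stayed at or below 0.0917 CPM, and the airway marker Scgb1a1 at or below 0.0656 CPM. The 7 macrophage markers summed to 225 to 421 CPM in WT chow, 1200.0 to 1694 in WT CDAHFD, 774 to 864 in KO chow and 1234 to 1295 in KO CDAHFD, and the 6 hepatocyte markers to 79650 to 97270, 41360 to 50820, 70270 to 79220 and 39280 to 54620 CPM. Their part in the results below was not tested, and in bulk liver RNA fewer cells of a type and less RNA per cell cannot be told apart. Libraries of the same group also differed in clock phase. Dbp, a clock output gene, was at 44.8 to 130 CPM in 4 libraries (WT chow 3, WT chow 4, KO chow 2 and KO CDAHFD 3) and at 0.388 to 3.75 CPM in the other 8. WT chow 1 stood apart in the acute phase gene Saa1, with 668 CPM where its group was otherwise between 43.9 and 54.5.

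Because these genes are near copies, reads can be counted for the wrong one. Of the 45 members, 17 shared no run of 100 transcript bases with another gene, 28 shared some, and 8 shared more than 10% of their runs, led by Cyp2c69 (35.4%), Cyp2c40 (34.4%), Cyp2c67 (23.7%) and Cyp2c68 (19.8%). Cyp2a4 and Cyp2a5 are a close pair that the results turn on. Their coding sequences of 1485 bases differed at 23 positions (98.45% identity), with 5 stretches of 100 or more identical bases. Coding bases 580 to 669 of both transcripts are shown, with the 5 bases that differ in capitals, as an example of a stretch in which a read can be told apart.
Cyp2a4: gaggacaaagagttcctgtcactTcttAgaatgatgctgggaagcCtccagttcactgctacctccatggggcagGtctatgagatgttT
Cyp2a5: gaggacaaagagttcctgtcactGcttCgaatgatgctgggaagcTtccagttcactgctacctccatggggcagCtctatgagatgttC

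The promoters of 39 of the 45 members, from 250 bases before to 50 bases after the RefSeq start on GRCm38.p6, were searched on both strands for letters of the known response elements. TTATGNAA, the letters bound by the clock proteins DBP, TEF and NFIL3, occurred in 3 of 39 members (7.69%) and in 3.99% of 27025 promoters of all genes. GCGTG, the core of the AhR element, occurred in 6 members (15.4%, against 35.2% of all promoters), Cyp1a1, Cyp1b1, Cyp2b10, Cyp2c68, Cyp2j9 and Cyp2r1. TTCNNNGAA, read by STAT5, occurred in none of the 39 members and in 9.55% of all promoters. None held the DR4 repeat of CAR and PXR in either spelling searched, each in 0.0148% of all promoters, or the DR1 repeat of PPARα, in 0.0481%. At the shares of DR4 and DR1 no match would be expected in 39 promoters, so their absence says nothing of these genes. Bases further from the start were not searched. A match to such letters is not a bound site. The 3 promoters with TTATGNAA belonged to Cyp2a4, Cyp2a5 and Cyp2b10, all on chromosome 7. They are shown because Cyp2a4 and Cyp2b10 carried large increases in KO chow and Cyp2a4 and Cyp2a5 were ordered with Dbp within groups, as given below. Cyp2a4 and Cyp2a5 are near copies, so their matches are not independent. Cyp2b10 was not so ordered, and Cyp1a1, Cyp2e1, Cyp2r1, Cyp3a25 and Cyp3a59, which were, held no TTATGNAA. A link of these letters to Dbp was not tested. The match, in capitals, was on the minus strand and lay 70 to 63 bases before the start in Cyp2a4, 71 to 64 in Cyp2a5 and 58 to 51 in Cyp2b10.
Cyp2a4, plus strand, chr7:26306942-26307241: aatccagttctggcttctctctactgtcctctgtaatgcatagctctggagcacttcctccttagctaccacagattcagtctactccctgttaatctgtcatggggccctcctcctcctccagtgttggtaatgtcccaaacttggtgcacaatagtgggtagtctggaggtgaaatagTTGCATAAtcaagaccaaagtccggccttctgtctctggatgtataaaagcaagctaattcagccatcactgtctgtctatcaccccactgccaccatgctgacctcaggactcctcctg
Cyp2a5, plus strand, chr7:26835089-26835388: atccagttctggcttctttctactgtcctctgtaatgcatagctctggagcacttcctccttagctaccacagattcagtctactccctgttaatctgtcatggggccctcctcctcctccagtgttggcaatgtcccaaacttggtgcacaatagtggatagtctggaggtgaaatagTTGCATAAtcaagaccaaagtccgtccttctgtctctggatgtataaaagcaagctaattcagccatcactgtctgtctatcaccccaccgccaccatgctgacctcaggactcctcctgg
Cyp2b10, plus strand, chr7:25897408-25897707: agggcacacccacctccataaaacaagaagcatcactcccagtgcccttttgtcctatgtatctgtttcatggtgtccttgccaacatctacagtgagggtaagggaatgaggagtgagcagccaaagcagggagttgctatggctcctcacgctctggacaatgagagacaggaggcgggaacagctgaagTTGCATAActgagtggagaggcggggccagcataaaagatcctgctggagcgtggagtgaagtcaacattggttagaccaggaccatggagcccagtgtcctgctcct

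Summed over the 45 members, the level was 20290 ± 3283 CPM (SD, n = 4) in WT chow, 9548 ± 529.8 (n = 3) in WT CDAHFD, 10070 ± 120.4 (n = 2) in KO chow and 10140 ± 930.4 (n = 3) in KO CDAHFD. On this TMM scale every library of the other groups was below every WT chow library. As a share of all counts of a library, the members held 1.30% to 1.73% in WT chow and 1.07% to 1.13% in WT CDAHFD. They held 1.04% in each KO chow library and 1.08% to 1.32% in KO CDAHFD. By that share KO CDAHFD 3 (1.3172%) lay above WT chow 1 (1.3016%). Cyp2e made up 34.6% of the summed level in WT chow and 12.2% in KO chow, with 37.7% under CDAHFD in WT and 43.1% in KO. Cyp3a made up 3.62% in WT chow and 39.2% in KO chow, with 20% under CDAHFD in WT and 12% in KO. Per kb of exon, Cyp2e1 was the highest member in WT chow (3253 CPM per kb), followed by Cyp2d9 (834) and Cyp2f2 (755). In KO chow the order was Cyp3a11 (686 CPM per kb), Cyp2e1 (572) and Cyp2d26 (313).

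**Figure D1:**
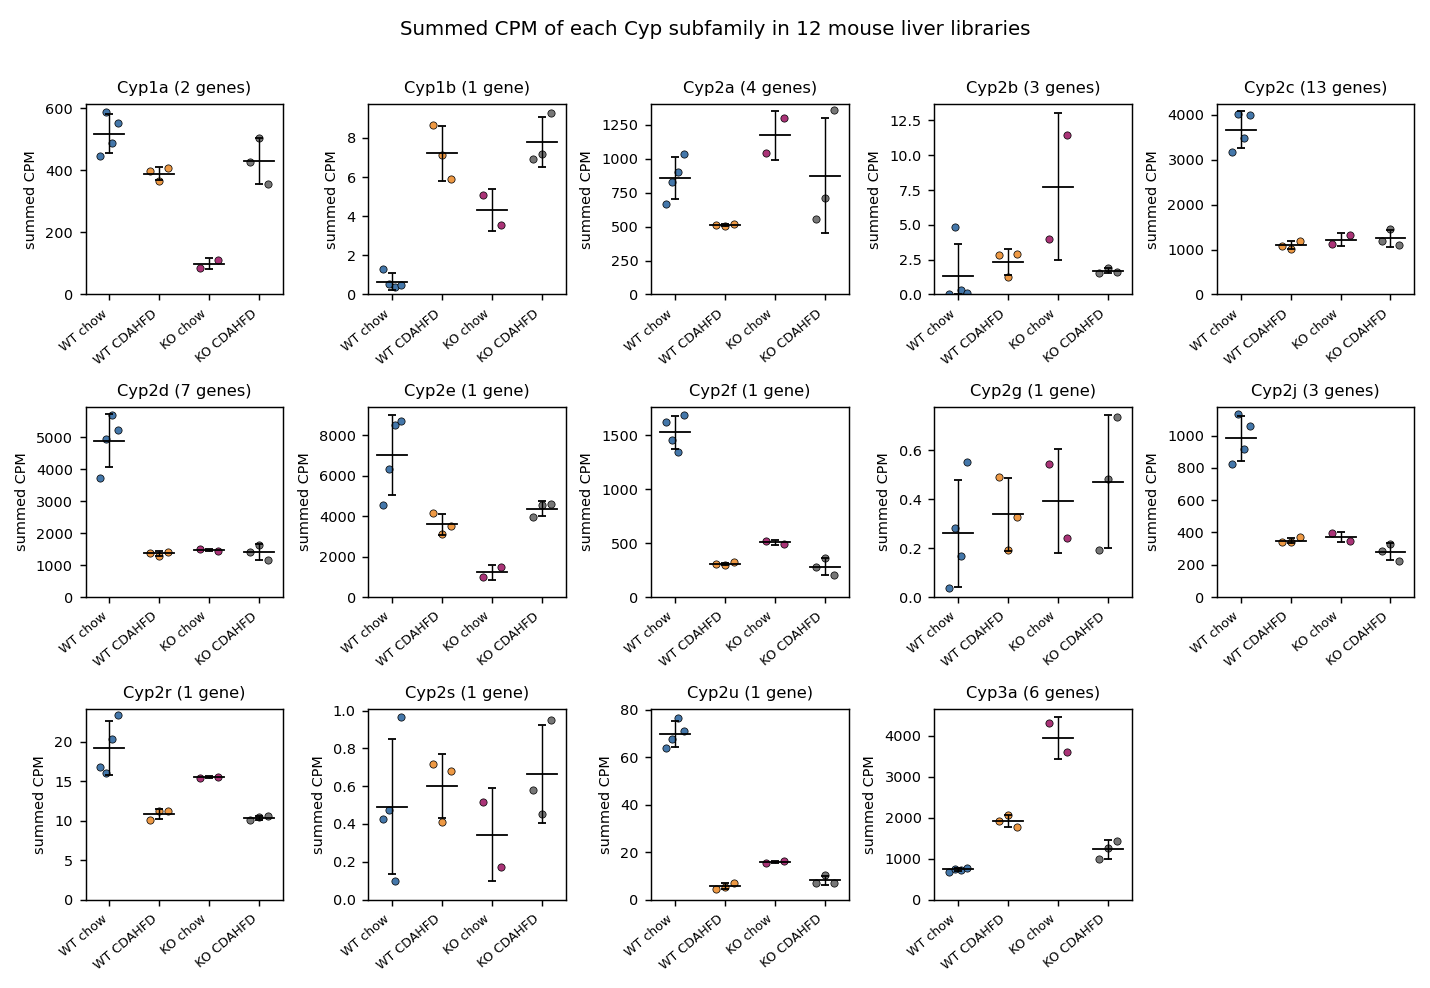
Summed CPM of each of the 14 subfamilies in the 12 libraries, 1 panel a subfamily, with a point for each library, a line at the group mean and bars of 1 SD (stopped at 0 where they would pass it). Cyp1a and Cyp2e are lowest in the 2 KO chow libraries, Cyp3a is highest in them, and Cyp2c, Cyp2d, Cyp2f, Cyp2j and Cyp2u are high in the WT chow libraries alone.

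In KO chow against WT chow, 10 of 45 members were higher and 23 lower, where 39% of all genes passed the test, 22% higher and 17% lower. In WT CDAHFD against WT chow, 13 were higher and 27 lower, where 51.1% of all genes passed, 26.1% higher and 25% lower. The median log2 difference of the members was -0.58 in KO chow and -0.96 in WT CDAHFD, beside 0.00217 and -0.05 over all genes. Over the 6 hepatocyte markers it was -0.546 and -1.2, so a fall of this size was not particular to the members. These comparisons share the 4 WT chow libraries. The counts include Cyp2b10 in KO chow and Cyp2b13 in WT CDAHFD, whose calls there are tied to the member rule, as given below. Of the 14 subfamily sums, 9 passed in KO chow (Cyp1b and Cyp3a higher, 7 lower) and 11 in WT CDAHFD (Cyp1b and Cyp3a higher, 9 lower). When the libraries were scaled by their total count alone, the median of all genes was 0.40 for KO chow and 0.51 for WT CDAHFD, so directions are relative to the centre of all genes. The subfamilies are taken in turn below.

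**Figure D2:**
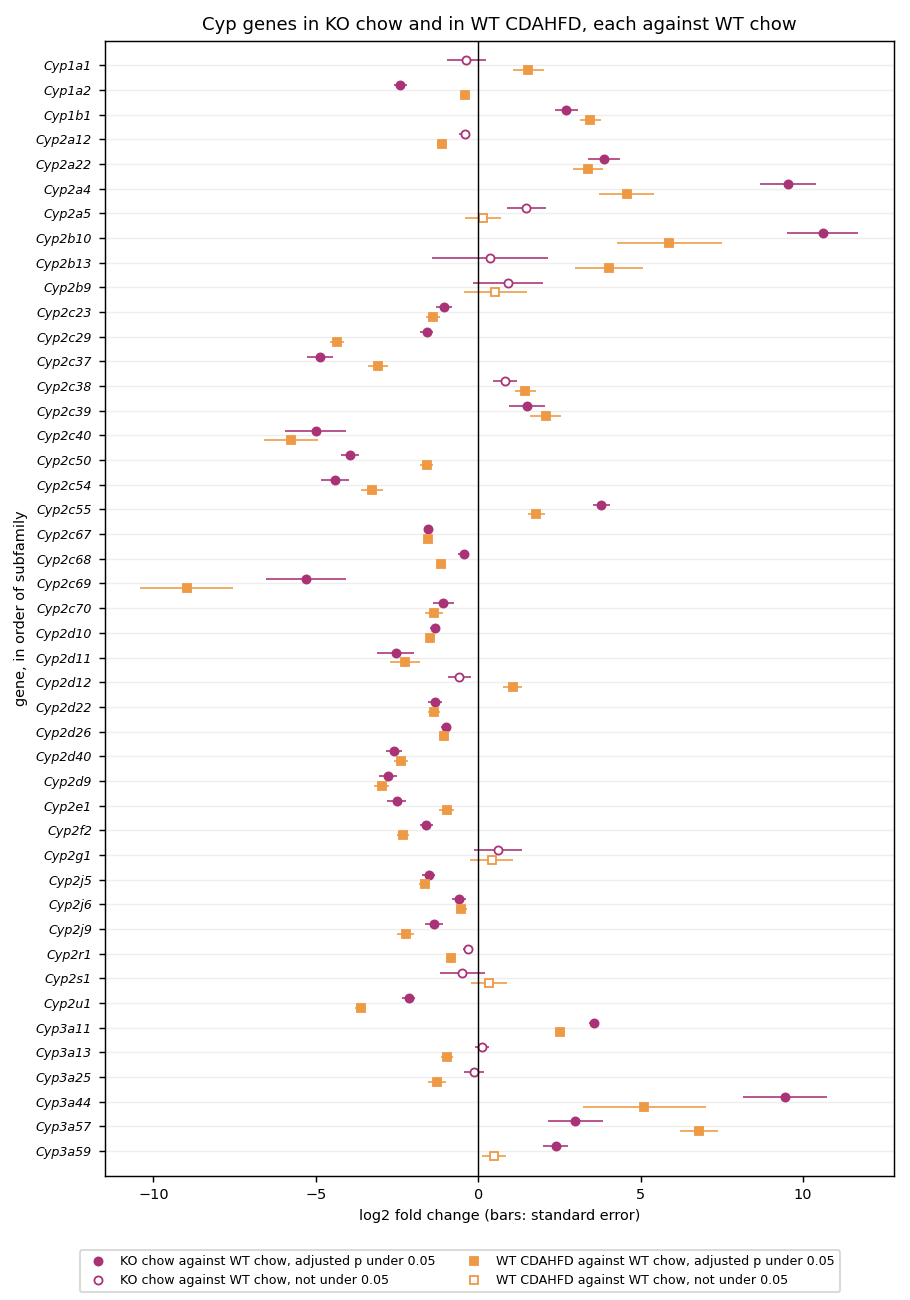
Log2 fold change of each of the 45 members in KO chow (circles) and in WT CDAHFD (squares) against WT chow, with bars of 1 standard error, filled where the adjusted p is under 0.05. Cyp2b10 and Cyp3a44 had no count in WT chow, so their positions depend on the small count the fit adds; Cyp1a2, Cyp2c50 and Cyp2e1 lie further left in KO chow, Cyp2c29 and Cyp2u1 further left in WT CDAHFD.

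The Cyp1 genes, which oxidise planar aromatic compounds and are induced through AhR, moved in different directions. Cyp1a2, the caffeine-metabolising enzyme of the pericentral hepatocyte (ENSMUSG00000032310, chromosome 9, 57676937 to 57683703, minus strand), was at 445, 588, 488 and 551 CPM in WT chow. In KO chow it was at 86 and 111 CPM. It was at 396, 364 and 405 CPM in WT CDAHFD and at 425, 503 and 354 CPM in KO CDAHFD. The KO chow libraries thus stood below all 10 others. Cyp1a2 fell 5.25-fold in KO chow, by a log2 difference of -2.39 (SE 0.18 and adjusted p = 1.14e-06). In WT CDAHFD the difference was -0.42 (SE 0.14 and adjusted p = 0.0292), which missed the threshold when any of 5 libraries was left out (adjusted p 0.0566 to 0.105) and turned to 0.15 (adjusted p = 0.307) with scaling by total count alone. Cyp1b1, which hydroxylates oestradiol and is expressed mainly outside hepatocytes, was at 1.28, 0.535, 0.367 and 0.459 CPM in WT chow, 8.69, 7.11 and 5.88 in WT CDAHFD, 5.08 and 3.56 in KO chow and 6.93, 7.19 and 9.28 in KO CDAHFD. All 8 other libraries were above the WT chow libraries, and Cyp1b1 rose by 2.71 (SE 0.36 and adjusted p = 7.79e-05) in KO chow and by 3.46 (SE 0.33 and adjusted p = 3.03e-06) in WT CDAHFD. Of the 7 macrophage markers 6 rose in each of KO chow and WT CDAHFD, and of the 6 stellate cell markers 3 rose in each. The stellate markers summed to 51.2 to 147 CPM in WT chow and to 705 to 1455 CPM in the 8 other libraries, and their part in the Cyp1b1 values was not tested. Cyp1a1, the other classical AhR target, was at 0.163 to 1.78 CPM in all libraries. It rose by 1.54 (SE 0.47 and adjusted p = 0.0155) in WT CDAHFD, and its value in KO chow was -0.36 (SE 0.60 and adjusted p = 0.665). Ahr itself was at 39.3 to 44.6 CPM in WT chow libraries, 55.9 to 68.4 in those of KO chow and 61.2 to 80.3 in those of WT CDAHFD, and rose by 0.53 in KO chow and 0.75 in WT CDAHFD (adjusted p = 0.0122 and 0.000396).

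Among the 4 Cyp2a members, which hydroxylate steroids and coumarin, Cyp2a4 gave one of the largest increases in KO chow. Cyp2a4, the testosterone hydroxylase with female-biased expression (ENSMUSG00000074254, chromosome 7, 26307169 to 26315088, plus strand), was at 0.0388, 0.252, 0.367 and 0.321 CPM in WT chow. In KO chow it was at 68.8 and 304 CPM. It was at 4.83, 6.04 and 6.95 CPM in WT CDAHFD and at 28.1, 33.8 and 147 CPM in KO CDAHFD. No library of another group overlapped with WT chow, and the 5 KO libraries were all above the 3 WT CDAHFD libraries. The log2 difference from WT chow was 9.54 (SE 0.86 and adjusted p = 3.59e-06) in KO chow, 8.11 or 10.3 with replicate 1 or replicate 2 of KO chow alone, and 4.57 (SE 0.84 and adjusted p = 0.000623) in WT CDAHFD. Cyp2a5, the coumarin 7-hydroxylase, was at 47.9, 115, 248 and 249.9 CPM in WT chow, 190.0, 191 and 168 in WT CDAHFD, 449 and 475 in KO chow and 204, 214 and 894 in KO CDAHFD. WT chow overlapped with both CDAHFD groups, while both KO chow libraries were above all WT libraries, and the difference in KO chow was 1.48 (SE 0.60 and adjusted p = 0.0679). Within each of the 3 groups that held libraries of both clock phases, the libraries with high Dbp had the higher Cyp2a4 and Cyp2a5. This was so for 7 members (also Cyp1a1, Cyp2e1, Cyp2r1, Cyp3a25 and Cyp3a59), where 9.12% of all genes tested were so ordered, and for 1, Cyp2d40, the reverse held, as for 8.9% of all genes. For Cyp2a4 in WT chow the order with Dbp rests on few reads, 1 and 8 counts at low Dbp and 11 and 7 at high Dbp. In KO chow it rests on 1 library of each kind. The 8 libraries with low Dbp include 1 KO chow library, which is then assumed to vary like the other groups, as is the KO chow library left in each fit without the other. Among these 8, Cyp2a5, whose KO chow value did not pass over all libraries, was higher by 2.46 in KO chow (adjusted p = 0.00119) and by 1.16 in WT CDAHFD (adjusted p = 0.0101), and Cyp2a4 by 8.76 in KO chow. With 12.1% of the 100-base runs of Cyp2a5 and 11.2% of those of Cyp2a4 shared, reads of one may be counted for the other.

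**Figure D3:**
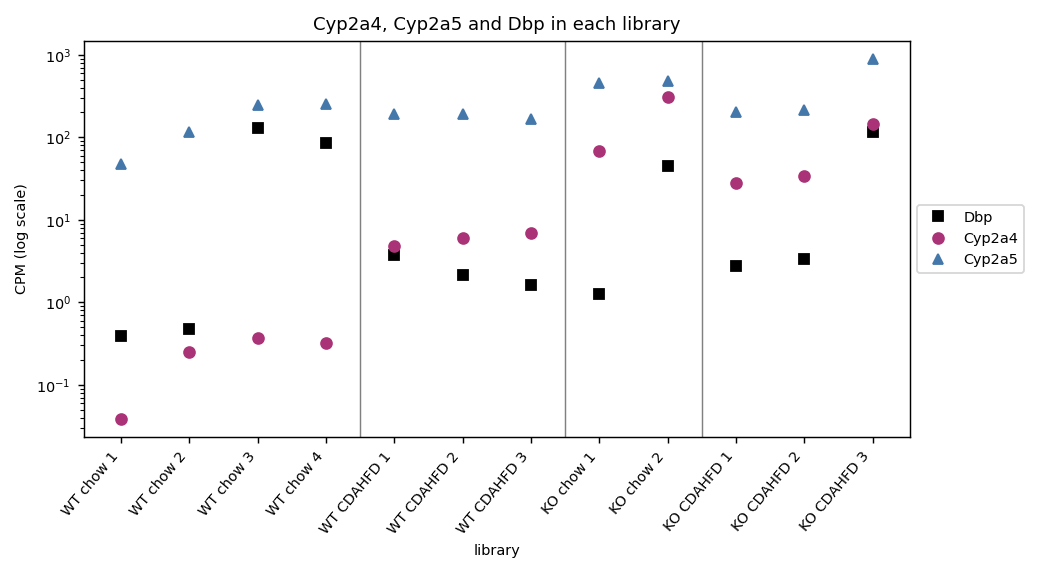
CPM of Cyp2a4 (circles), Cyp2a5 (triangles) and the clock gene Dbp (squares) in each of the 12 libraries on a log axis, with grey lines that part the 4 groups. In WT chow, KO chow and KO CDAHFD the libraries with Dbp of 44.8 CPM or more have the highest Cyp2a4 and Cyp2a5 of their group. Cyp2a4 is at most 0.367 CPM in any WT chow library, from 1, 8, 11 and 7 counts in WT chow 1 to 4.

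The other Cyp2a members went opposite ways. Cyp2a12, a steroid hydroxylase of mouse liver and the Cyp2a gene with the highest level per kb in WT chow (200.5 CPM per kb), was at 621, 713, 654 and 784 CPM in WT chow, 315, 303 and 337 in WT CDAHFD, 523 and 514 in KO chow and 318, 454 and 301 in KO CDAHFD. It fell by a log2 difference of -1.12 (SE 0.15 and adjusted p = 3.97e-05) in WT CDAHFD. In KO chow the difference was -0.42 (SE 0.16 and adjusted p = 0.0601). It was -0.00925 (adjusted p = 0.962) with scaling by total count alone, and it passed in DESeq2 (adjusted p = 0.0421), without WT chow replicate 1 (-0.45, adjusted p = 0.037) and without KO CDAHFD replicate 2 or 3 (adjusted p = 0.0175 and 0.0436). Cyp2a22 was at 0.194, 0.283, 0.9003 and 0.229 CPM in WT chow, 5.14, 3.11 and 4.89 in WT CDAHFD, 3.89 and 8.34 in KO chow and 6.98, 9.54 and 13.4 in KO CDAHFD. Its 3 other groups were above WT chow without overlap, and it rose by 3.88 (SE 0.48 and adjusted p = 4.87e-05) in KO chow, 4.67 without WT chow replicate 3 and 3.22 without KO chow replicate 2, and by 3.39 (SE 0.46 and adjusted p = 5.4e-05) in WT CDAHFD.

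The Cyp2b genes, the classical targets of CAR, were low in all groups. Cyp2b10, the phenobarbital-inducible member (ENSMUSG00000030483, chromosome 7, 25897620 to 25926624, plus strand), had no count in any WT chow library and was at 2.75 and 7.59 CPM in KO chow. It was at 0.184, 0.214 and 0.175 CPM in WT CDAHFD and at 0.0727, 0.214 and 0 CPM in KO CDAHFD. The 414 counts of the KO chow libraries made it at least 46.1-fold higher than a floor of 3 counts per WT chow library, and at least 1.7-fold higher in WT CDAHFD (28 counts). The edgeR test called both (adjusted p = 5.1e-05 and 0.0124). Besides the KO chow libraries (101 and 313 counts), only WT CDAHFD 2 (11 counts) reached the 10 counts of the member rule. Cyp2b10 thus became a member only through KO chow, and its calls in all comparisons that use KO chow, the interaction included, are tied to the rule. Cyp2b9, a female-biased steroid hydroxylase, was at 0, 4.79, 0.3 and 0.138 CPM in WT chow, 2.38, 1.01 and 2.51 in WT CDAHFD, 1.25 and 3.86 in KO chow and 1.41, 1.66 and 1.5 in KO CDAHFD. WT chow 2 lay above all other libraries, and the differences were 0.92 (SE 1.07 and adjusted p = 0.532) in KO chow and 0.53 (SE 0.97 and adjusted p = 0.672) in WT CDAHFD. Without WT chow replicate 2 they were 4.06 (adjusted p = 0.00132) and 3.68 (adjusted p = 0.00127), so that 1 library decided this gene. Cyp2b13, also female-biased, was at 0, 0.0315, 0 and 0 CPM in WT chow, 0.307, 0.0583 and 0.24 in WT CDAHFD, 0 and 0.0243 in KO chow and 0.097, 0.0267 and 0.143 in KO CDAHFD. It had 1 count over WT chow and 29 over WT CDAHFD, a ratio of 21.7 (95% counting interval 3.6 to 886 and adjusted p = 0.00637), and 1 count over KO chow. Only WT CDAHFD 1 (15 counts) and WT CDAHFD 3 (11 counts) reached the 10 counts of the member rule. Cyp2b13 thus became a member only through WT CDAHFD, and its call there is tied to the rule. The WT CDAHFD call was lost among the libraries with low Dbp (adjusted p = 0.0625).

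The 13 Cyp2c members, which epoxygenate arachidonic acid and oxidise many drugs, included the 2 largest fitted decreases of any member in both comparisons, those of Cyp2c69 and Cyp2c40. KO chow had 2 of them higher and 10 lower, WT CDAHFD 3 higher and 10 lower, so that the summed Cyp2c level was 3669 ± 413 CPM (SD, n = 4) in WT chow, 1219 ± 145 (n = 2) in KO chow and 1094 ± 85.6 (n = 3) in WT CDAHFD. Cyp2c37, Cyp2c50 and Cyp2c54, neighbouring CAR-responsive epoxygenases between 39992424 and 40113950 on chromosome 19, shared one order of groups. Cyp2c37 was at 220.2, 314, 237 and 253 CPM in WT chow, 59.4, 77 and 88 in KO CDAHFD, 29.6, 21.3 and 39.4 in WT CDAHFD and 5.14 and 12.3 in KO chow. Cyp2c50 was at 456, 752, 687 and 756 CPM, 352, 439.5 and 280.5, 224, 207 and 232 and 35.5 and 50.5 in the same order of groups. Cyp2c54 was at 128, 307, 236 and 254 CPM, 47.1, 71.4 and 30.2, 21.3, 21.9 and 28.3 and 8.46 and 13.3. For these 3 genes the groups did not overlap: WT chow was highest, KO CDAHFD next, then WT CDAHFD, and KO chow lowest. The fall in KO chow was -4.87 (SE 0.40 and adjusted p = 1.61e-06) for Cyp2c37 (-5.63 without KO chow replicate 2), -3.95 (SE 0.28 and adjusted p = 5.21e-07) for Cyp2c50 and -4.41 (SE 0.44 and adjusted p = 7.79e-06) for Cyp2c54. In WT CDAHFD it was -3.09 (SE 0.30 and adjusted p = 3.07e-06), -1.58 (SE 0.20 and adjusted p = 3.7e-05) and -3.28 (SE 0.34 and adjusted p = 6.24e-06). They share 4.70% to 7.59% of their 100-base runs with each other.

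Cyp2c29, another epoxygenase under CAR, had a different order. It was at 460.2, 479.8, 632 and 525 CPM in WT chow, 24.4, 20.4 and 32.5 in WT CDAHFD, 153 and 195 in KO chow and 29.5, 38 and 37.4 in KO CDAHFD. Both CDAHFD groups were thus below KO chow, which was below WT chow. The fall was -1.59 (SE 0.21 and adjusted p = 7.09e-05) in KO chow and -4.35 (SE 0.20 and adjusted p = 1.38e-08) in WT CDAHFD, the latter 20.3-fold. Cyp2c55, an epoxygenase that CAR and PXR ligands induce, went up instead, at 1.98, 0.881, 1.93 and 1.38 CPM in WT chow, 6, 5.4 and 4.54 in WT CDAHFD, 18.9 and 24 in KO chow and 6.38, 7.03 and 4.35 in KO CDAHFD. KO chow was highest and WT chow lowest without overlap, and Cyp2c55 rose by 3.797 (SE 0.28 and adjusted p = 7.05e-07) in KO chow and by 1.79 (SE 0.26 and adjusted p = 8.93e-05) in WT CDAHFD. Cyp2c39 rose in both KO chow and WT CDAHFD (1.504 and 2.08, adjusted p = 0.0425 and 0.00309), though in KO chow not among the libraries with low Dbp (0.73, adjusted p = 0.362). Cyp2c38 rose in WT CDAHFD (1.45, adjusted p = 0.00277).

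Cyp2c40, an arachidonic acid hydroxylase, and its near copy Cyp2c69, both listed as female-biased, varied widely within WT chow. Cyp2c40 was at 34.7, 12.7, 3.13 and 5.87 CPM in WT chow, 0.225, 0.155 and 0.393 in WT CDAHFD, 0.435 and 0.436 in KO chow and 0.315, 0.267 and 0.571 in KO CDAHFD. Cyp2c69 was at 13.6, 3.56, 1.2 and 1.93 CPM in WT chow, 0, 0.0194 and 0 in WT CDAHFD, 0 and 0.242 in KO chow and 0.0727, 0.0267 and 0.262 in KO CDAHFD. In both genes WT chow 1 was highest and no group overlapped with WT chow. Cyp2c40 fell by a log2 difference of -5.004 (SE 0.94 and adjusted p = 0.00112) in KO chow and -5.77 (SE 0.82 and adjusted p = 8.31e-05) in WT CDAHFD, and by 4.04 and 4.79 without WT chow replicate 1. Cyp2c69 had 542 counts over WT chow and 1 over WT CDAHFD, a ratio of 724 (95% counting interval 129 to 28700). In KO chow its difference was -5.29 (SE 1.23 and adjusted p = 0.00451), -4.11 without WT chow replicate 1, -10.6 without KO chow replicate 2, and -4.36 with adjusted p = 0.0524 without KO chow replicate 1. Of their 100-base runs, 34.4% and 35.4% are shared with Cyp2c67, Cyp2c68 or one another.

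Cyp2c70, a bile acid hydroxylase that makes muricholic acids in mice and the Cyp2c gene with the highest level per kb in WT chow (328 CPM per kb), was at 698, 799.9, 400.3 and 700.5 CPM in WT chow, 232, 263 and 257 in WT CDAHFD, 307 and 313 in KO chow and 198, 274 and 109.8 in KO CDAHFD. All 8 other libraries lay below WT chow, by a log2 difference of -1.37 (SE 0.28 and adjusted p = 0.0012) in WT CDAHFD and -1.07 (SE 0.32 and adjusted p = 0.0178) in KO chow. The KO chow call was lost when either of its 2 libraries was left out (adjusted p = 0.105 and 0.0835), and with scaling by total count alone (adjusted p = 0.0836). Cyp2c67 fell by a log2 difference of -1.54 and -1.54 in KO chow and WT CDAHFD (adjusted p = 3.42e-06 and 4.13e-07). Cyp2c23, the epoxygenase also named Cyp2c44, fell by a log2 difference of -1.05 and -1.38 (adjusted p = 0.00598 and 0.000225). Cyp2c68 fell by a log2 difference of -0.44 and -1.14 (adjusted p = 0.0475 and 3.51e-05), the first of which was -0.04 (adjusted p = 0.854) with scaling by total count alone.

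**Figure D4:**
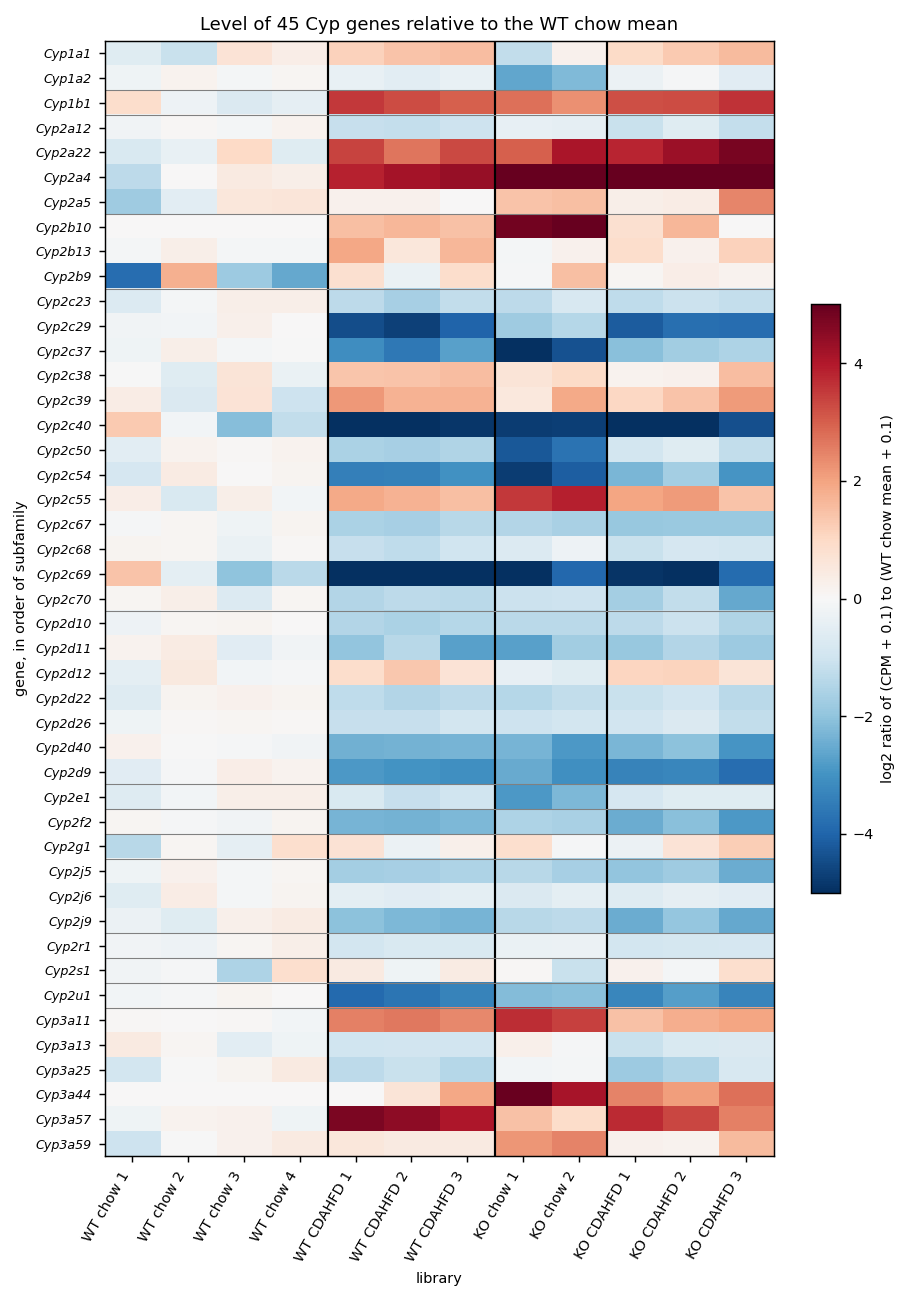
Level of the 45 members in each of the 12 libraries as the log2 ratio of (CPM + 0.1) to (WT chow mean + 0.1), in order of subfamily, with colours that end at 5 in either direction. Most Cyp2c, Cyp2d and Cyp2j genes and Cyp2f2 are blue in all 8 libraries outside WT chow, apart from Cyp2c38, Cyp2c39, Cyp2c55 and Cyp2d12, and Cyp2b10, Cyp2c55, Cyp3a11 and Cyp3a44 are darkest red in KO chow. The small constant damps genes near 0.

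The 7 Cyp2d genes, whose human counterpart metabolises many antidepressants and beta blockers, mostly fell. In both KO chow and WT CDAHFD 6 of the 7 fell, and the sum was 3726, 4944, 5684 and 5216 CPM in WT chow, 1377, 1293 and 1421 in WT CDAHFD, 1506 and 1451 in KO chow and 1415, 1641 and 1161 in KO CDAHFD. WT chow stood above the 3 other groups, of which KO CDAHFD overlapped with both others. Cyp2d9, the male-specific testosterone 16α-hydroxylase and the subfamily's highest member per kb in WT chow (834 CPM per kb), was at 1481, 2121, 2790 and 2478 CPM in WT chow, 303, 279.9 and 263 in WT CDAHFD, 383 and 266 in KO chow and 216, 233 and 158 in KO CDAHFD. It fell by a log2 difference of -2.77 (SE 0.27 and adjusted p = 6.91e-06) in KO chow and -2.97 (SE 0.23 and adjusted p = 5.25e-07) in WT CDAHFD. In KO chow and WT CDAHFD the log2 differences were -2.59 and -2.38 for Cyp2d40, -2.54 and -2.26 for Cyp2d11, -1.34 and -1.49 for Cyp2d10, -1.32 and -1.35 for Cyp2d22, and -0.98 and -1.06 for Cyp2d26, with adjusted p from 1.02e-06 to 0.00358. Cyp2d12, at 0.534 to 2.31 CPM, was the exception. It rose by 1.06 (SE 0.29 and adjusted p = 0.00815) in WT CDAHFD, and its difference in KO chow was -0.58 (SE 0.36 and adjusted p = 0.226).

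Cyp2e1, which oxidises ethanol and fatty acids and generates reactive oxygen (ENSMUSG00000025479, chromosome 7, 140763739 to 140774987, plus strand), had the highest level per kb of all members in 3 of the 4 groups. It was at 4534, 6311, 8523 and 8708 CPM in WT chow, 4145, 3137 and 3510 in WT CDAHFD, 969 and 1497 in KO chow and 3941, 4571 and 4614 in KO CDAHFD. KO chow was below all other libraries, WT CDAHFD was below WT chow, and KO CDAHFD overlapped with WT chow through WT chow 1. Cyp2e1 fell 5.69-fold in KO chow, by a log2 difference of -2.51 (SE 0.29 and adjusted p = 2.39e-05), and by a log2 difference of -0.96 (SE 0.23 and adjusted p = 0.00343) in WT CDAHFD, a call that was lost with scaling by total count alone (-0.40, adjusted p = 0.106). Cyp2f2, the naphthalene-oxidising enzyme that is also abundant in airway cells, was at 1620, 1454, 1347 and 1692 CPM in WT chow, 304, 298 and 322 in WT CDAHFD, 523 and 491 in KO chow and 274, 361 and 207 in KO CDAHFD. It fell in both, by a log2 difference of -1.59 (SE 0.20 and adjusted p = 4.15e-05) in KO chow and -2.31 (SE 0.17 and adjusted p = 3.6e-07) in WT CDAHFD, and KO chow kept above the CDAHFD groups without overlap. An antisense gene that overlaps Cyp2f2, Gm15883, had 1.128% of its counts, and the library preparation did not keep strand.

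The 3 Cyp2j members, epoxygenases of arachidonic acid, fell in both comparisons. Cyp2j5, the main liver and kidney form, was at 746, 1001, 809 and 929 CPM in WT chow, 268, 272 and 299 in WT CDAHFD, 331 and 273 in KO chow and 223, 257 and 157 in KO CDAHFD. WT chow lay above the 3 other groups, and Cyp2j5 fell by a log2 difference of -1.53 (SE 0.20 and adjusted p = 6.19e-05) in KO chow and -1.64 (SE 0.17 and adjusted p = 5.52e-06) in WT CDAHFD. Cyp2j9 fell by a log2 difference of -1.36 and -2.23 (adjusted p = 0.00242 and 1.38e-05). Cyp2j6 fell by a log2 difference of -0.59 and -0.52 (adjusted p = 0.0344 and 0.0258), which was -0.18 and 0.05 with scaling by total count alone.

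Of the single-gene subfamilies, Cyp2u1, a fatty acid hydroxylase listed as male-biased (ENSMUSG00000027983, chromosome 3, 131288441 to 131303227, minus strand), is taken first. It was at 63.7, 67.5, 76.5 and 70.9 CPM in WT chow, 4.65, 5.5 and 6.86 in WT CDAHFD, 15.4 and 16.2 in KO chow and 7.18, 10.3 and 7.04 in KO CDAHFD. WT chow was highest, KO chow next and the CDAHFD groups lowest without overlap among the 4 groups. Cyp2u1 fell by a log2 difference of -2.14 (SE 0.19 and adjusted p = 3.5e-06) in KO chow and by a log2 difference of -3.62 (SE 0.18 and adjusted p = 1.63e-08), or 12.3-fold, in WT CDAHFD. Cyp2r1, the vitamin D 25-hydroxylase, was at 16.8, 16.1, 20.4 and 23.4 CPM in WT chow, 10.1, 11.2 and 11.2 in WT CDAHFD, 15.4 and 15.6 in KO chow and 10.1, 10.4 and 10.6 in KO CDAHFD. It fell by a log2 difference of -0.82 (SE 0.14 and adjusted p = 0.000252) in WT CDAHFD (-0.26, adjusted p = 0.0987, with scaling by total count alone), and the KO chow value was -0.31 (SE 0.15 and adjusted p = 0.13), or 0.10 under that scaling. Cyp2g1, an olfactory form, was at 0.0388, 0.283, 0.167 and 0.55 CPM in WT chow, 0.492, 0.194 and 0.328 in WT CDAHFD, 0.544 and 0.242 in KO chow and 0.194, 0.481 and 0.737 in KO CDAHFD. Cyp2s1, an epithelial form, was at 0.427, 0.472, 0.1 and 0.963 CPM in WT chow, 0.717, 0.408 and 0.677 in WT CDAHFD, 0.517 and 0.17 in KO chow and 0.582, 0.455 and 0.951 in KO CDAHFD. In both genes WT chow overlapped with the 3 other groups. Their differences from WT chow were 0.62 (SE 0.74 and adjusted p = 0.538) and -0.48 (SE 0.69 and adjusted p = 0.609) in KO chow, and 0.41 (SE 0.66 and adjusted p = 0.626) and 0.33 (SE 0.56 and adjusted p = 0.649) in WT CDAHFD.

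The Cyp3a subfamily, which oxidises steroids, bile acids and many drugs, was the one whose sum rose in both comparisons besides Cyp1b. Cyp3a11, the main PXR target and the mouse counterpart of human CYP3A4 (ENSMUSG00000056035, chromosome 5, 145854426 to 145879964, minus strand), was at 306, 302, 309 and 266 CPM in WT chow. In KO chow it was at 3839 and 3152 CPM. It was at 1706, 1831 and 1569 CPM in WT CDAHFD and at 822, 1052 and 1164 CPM in KO CDAHFD. The 4 groups did not overlap, with KO chow highest, then WT CDAHFD, KO CDAHFD and WT chow. Cyp3a11 rose 11.8-fold in KO chow, by 3.56 (SE 0.15 and adjusted p = 1.57e-08), and 5.75-fold in WT CDAHFD, by 2.52 (SE 0.14 and adjusted p = 3.44e-08). Only 0.141% of its 100-base runs were shared with another gene.

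The smaller Cyp3a genes did not move as one. Cyp3a44, a female-biased form, had no count in WT chow and 176 in KO chow, at 2.94 and 1.65 CPM, which made it at least 20.4-fold higher than a floor of 3 counts per library. In KO CDAHFD it was at 0.461, 0.321 and 0.571 CPM, and in WT CDAHFD at 0, 0.0583 and 0.284 CPM, which is near that floor and whose call (adjusted p = 0.0453) was lost in 11 of the 12 fits without 1 library, with a value of 3.3 and adjusted p = 0.149 without WT CDAHFD replicate 3. Cyp3a57 was at 0, 0.0315, 0.0333 and 0 CPM in WT chow, 2.91, 2.49 and 1.79 in WT CDAHFD, 0.218 and 0.121 in KO chow and 1.43, 1.07 and 0.571 in KO CDAHFD. Outside WT chow its order was the reverse of that of Cyp3a44, highest in WT CDAHFD, with 352 counts there against 2 in WT chow, a ratio of 132 (95% counting interval 36.2 to 1090; adjusted p = 1.01e-06). Cyp3a25, a steroid hydroxylase with the highest level per kb of the subfamily in WT chow (128 CPM per kb), was at 139.7, 264, 296 and 365 CPM in WT chow, 109, 125 and 98.2 in WT CDAHFD, 240.5 and 248 in KO chow and 76, 94.9 and 152 in KO CDAHFD. It fell by a log2 difference of -1.27 (SE 0.29 and adjusted p = 0.00278) in WT CDAHFD (-0.69, adjusted p = 0.0514, with scaling by total count alone), and its KO chow value was -0.12 (SE 0.32 and adjusted p = 0.783), or 0.30 under that scaling. Cyp3a13 fell in WT CDAHFD (-0.96, adjusted p = 0.0013), and its KO chow value was 0.12 (SE 0.22 and adjusted p = 0.688). Cyp3a59 rose in KO chow (2.38, adjusted p = 0.000391), where it was at 18.1 to 21.7 CPM against 1.79 to 5.23 in WT chow.

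Under CDAHFD few of these genes differed measurably by genotype. In KO CDAHFD against WT CDAHFD, 1 of 45 members passed, where 0.357% of all genes did (0.0864% higher, 0.271% lower), and 12 had an unadjusted p under 0.05. The share of all genes under that unadjusted threshold was not computed, so the 12 cannot be read as an excess. The member that passed was Cyp2a4, at 28.1, 33.8 and 147 CPM against 4.83, 6.04 and 6.95, without overlap. Its difference was 3.55 (SE 0.66 and adjusted p = 0.0443). The call was lost in 8 of the 12 fits without 1 library (adjusted p up to 0.262 without WT CDAHFD replicate 1), and the value was 2.38 without KO CDAHFD replicate 3, the library with high Dbp. Among the libraries with low Dbp alone, Cyp2a4 (2.38), Cyp3a11 (-0.86) and Cyp2c38 (-1.25) passed. No subfamily sum passed the edgeR test (3 had an unadjusted p under 0.05, again without a share of all genes to set it against), and 1 did in DESeq2. The difference was -0.75 for Cyp3a11 (adjusted p = 0.0528), 0.28 for Cyp2e1 (SE 0.24) and 0.14 for Cyp1a2 (SE 0.15).

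The diet moved 16 members in KO liver. In KO CDAHFD against KO chow, 7 of 45 were higher and 9 lower, where 6.19% of all genes passed (3.76% higher, 2.44% lower); with scaling by total count alone 7 were higher and 6 lower, and without KO chow replicate 1, 3 and 4. Cyp1a2, Cyp2c50, Cyp2c37, Cyp2e1 and Cyp2c54 rose. Cyp1a2 and Cyp2c50 rose by 2.11 (SE 0.19 and adjusted p = 0.000107) and 3.05 (SE 0.27 and adjusted p = 0.000107), and Cyp2c37 by 3.097 (SE 0.37 and adjusted p = 0.000871), 3.86 without KO chow replicate 2. Cyp2e1 and Cyp2c54 rose by 1.83 (SE 0.28 and adjusted p = 0.00409) and 2.19 (SE 0.40 and adjusted p = 0.00941), both no longer called without KO chow replicate 1 (adjusted p = 0.0501 and 0.0999). Cyp2c29, Cyp3a11, Cyp2c55, Cyp2b10 and Cyp2u1 fell. The fall was -2.32 (SE 0.20 and adjusted p = 0.000107) for Cyp2c29, -1.79 (SE 0.16 and adjusted p = 0.000107) for Cyp3a11 and -1.86 (SE 0.28 and adjusted p = 0.00331) for Cyp2c55. Cyp2b10 dropped from 414 counts to 11, by a log2 difference of -5.76 (SE 0.74 and adjusted p = 0.00346), with values from -4.84 without KO chow replicate 2 to -7.04 without KO CDAHFD replicate 2. This call too is tied to the member rule, which Cyp2b10 met only through KO chow. Cyp2u1 fell by a log2 difference of -0.95 (SE 0.18 and adjusted p = 0.0119), which missed the threshold without either KO chow library (adjusted p = 0.061 and 0.0648).

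KO chow and WT CDAHFD, the single changes, differed from each other in 18 members, where 6.12% of all genes did. In KO chow 12 were higher (2.71% of all genes) and 6 lower (3.42% of all genes); without KO chow replicate 1, 10 passed in all. The higher ones with the smallest adjusted p were Cyp2c29 (2.76, adjusted p = 2.28e-05), Cyp2u1 (1.48, 0.000819), Cyp2c55 (2.01, 0.00146), Cyp2a4 (4.97, 0.00194) and Cyp3a11 (1.04, 0.00275). Cyp2a4 was at 3.53 or 5.67 with replicate 1 or replicate 2 of KO chow alone. The lower ones with the smallest adjusted p were Cyp1a2 (-1.98, adjusted p = 0.00013), Cyp2c50 (-2.36, 0.000366), Cyp3a57 (-3.81, 0.00146), Cyp2e1 (-1.54, 0.00744) and Cyp2c37 (-1.78, 0.0113), and Cyp2d12 was also lower (-1.64, 0.022). Without KO chow replicate 1, Cyp2e1 and Cyp2c37 were no longer called (adjusted p = 0.0982 and 0.0989), and without KO chow replicate 2 Cyp2c37 was at -2.55.

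The interaction, the change with CDAHFD in KO minus the change with CDAHFD in WT, passed in 29 members, 20 positive and 9 negative, where 23.1% of all genes passed, 8.63% positive and 14.5% negative. Its median was 0.63 over the members and 0.01 over all genes. Cyp2c50 at 4.64 (SE 0.34 and adjusted p = 2.78e-06), Cyp2c37 at 6.18 (SE 0.48 and adjusted p = 3.84e-06), Cyp1a2 at 2.53 (SE 0.23 and adjusted p = 1.3e-05), Cyp2u1 at 2.67 (SE 0.25 and adjusted p = 1.5e-05) and Cyp2c54 at 5.46 (SE 0.54 and adjusted p = 1.96e-05) had the smallest adjusted p of the positive ones. By the fitted values the diet lowered Cyp1a2, Cyp2c37, Cyp2c50, Cyp2c54 and Cyp2e1 in WT and raised them in KO. With scaling by total count alone, the WT value of Cyp1a2 turned to 0.147 and the WT fall of Cyp2e1 was no longer called. The calls of the KO rises of Cyp2e1 and Cyp2c54 depended on KO chow replicate 1, as given above. Cyp3a11 at -4.31 (SE 0.21 and adjusted p = 1.58e-07), Cyp2c55 at -3.64 (SE 0.38 and adjusted p = 3.2e-05), Cyp2a4 at -5.997 (SE 1.08 and adjusted p = 0.00151) and Cyp1b1 at -2.604 (SE 0.48 and adjusted p = 0.00169) had the smallest of the negative ones, with Cyp2b10, whose fitted value has no bound because WT chow was at 0 (adjusted p = 0.000543). The Cyp2b10 call is also tied to the member rule. Cyp2a4 went from -4.57 without KO chow replicate 2 to -7.17 without KO CDAHFD replicate 3. Cyp3a11 and Cyp2c55 rose with the diet in WT and fell with it in KO. With both changes together, KO CDAHFD against WT chow, 11 members were higher and 26 lower, where 52.4% of all genes passed (26.9% higher, 25.4% lower), and 16 and 19 with scaling by total count alone.

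**Figure D5:**
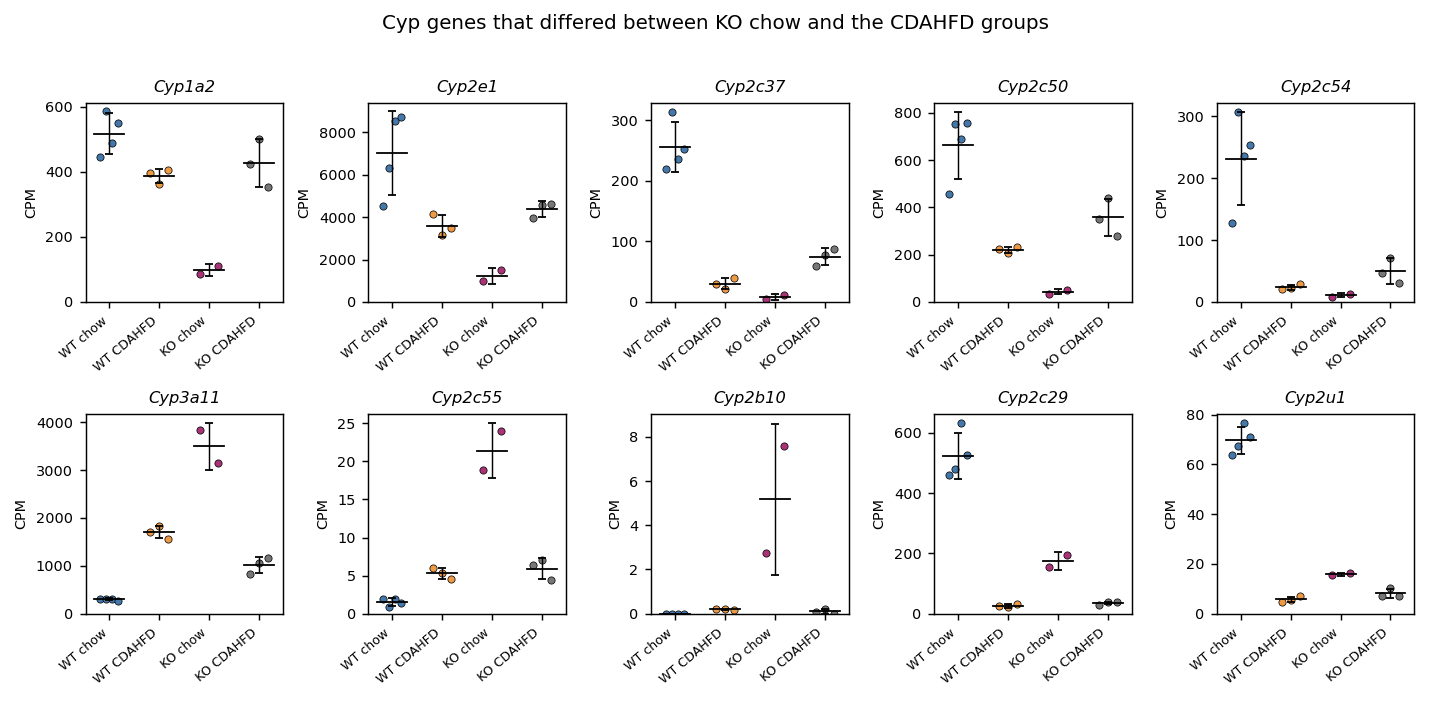
CPM of 10 members in the 12 libraries, 1 panel a gene, with a point for each library, a line at the group mean and bars of 1 SD (stopped at 0). In the top row KO chow is the lowest group; in the bottom row KO chow is the highest for Cyp3a11, Cyp2c55 and Cyp2b10 and lies between WT chow and the CDAHFD groups for Cyp2c29 and Cyp2u1.

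Members were also grouped by what is known of their regulation, and each count is to be read beside the background. Over all genes tested, 22% rose and 17% fell in KO chow, and 26.1% rose and 25% fell in WT CDAHFD. Of the 45 members, 22.2% rose and 51.1% fell in KO chow, and 28.9% rose and 60% fell in WT CDAHFD. The lists were chosen with earlier results of these data known, so their counts are not independent support. Of the 8 CAR and PXR targets, 3 rose in KO chow (Cyp2b10, Cyp2c55 and Cyp3a11), 4 fell (Cyp2c29, Cyp2c37, Cyp2c50 and Cyp2c54) and Cyp3a13 did not pass; in WT CDAHFD 3 rose and 5 fell. The Cyp2b10 rise in KO chow is tied to the member rule. Of the 8 pericentral genes, 1 rose and 6 fell in both comparisons, with Cyp3a11 the one that rose. Of the 10 arachidonic acid epoxygenases, 2 rose and 7 fell in KO chow, and 3 rose and 7 fell in WT CDAHFD. Cyp2c44 of that list, which the table names Cyp2c23, was not matched by symbol and is not in these counts. Of the 7 members on the female-biased list, 2 rose (Cyp2a4 and Cyp3a44) and 2 fell (Cyp2c40 and Cyp2c69) in KO chow, and 3 rose and 2 fell in WT CDAHFD. The 3 include Cyp2b13, whose call is tied to the member rule. Of the male-biased list, Cyp2d9, Cyp2u1, Cyp2f2 and Cyp2d40, 4 of 4 fell in both comparisons, with medians of -2.36 and -2.68. Of 10 other male-biased liver genes, 9 fell in each comparison (medians -3.43 and -4.02). The 7 female-biased liver genes tested were mixed. Of them 3 rose and 2 fell in KO chow, and 2 rose and 3 fell in WT CDAHFD (medians 1.94 and 0.081). Ghr, the growth hormone receptor, was at 821 to 1050 CPM in WT chow libraries, 258 to 333 in those of KO chow and 271 to 301 in those of WT CDAHFD (-1.63 in KO chow and -1.67 in WT CDAHFD, adjusted p = 3.06e-06 and 3.16e-07). In the growth hormone list of 9 genes, 4 fell in KO chow and 3 in WT CDAHFD (17% and 25% of all genes), and none rose. Igf1, the main product of growth hormone action in liver, fell by a log2 difference of -0.76 in KO chow and -1.196 in WT CDAHFD (adjusted p = 0.00213 and 1.38e-05).

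The receptors above these genes followed different orders. The background was 22% of all genes higher and 17% lower in KO chow, and 26.1% and 25% in WT CDAHFD. Of 11 xenobiotic receptors and partners, 1 rose and 5 fell in KO chow, and 2 rose and 6 fell in WT CDAHFD. The list includes Ppara, the gene deleted in KO hepatocytes, so its lower level in KO chow was set by the design. Nr1i3, which encodes CAR, was at 18, 32.6, 46.1 and 34 CPM in WT chow, 17.9, 18.3 and 16.3 in WT CDAHFD, 9.08 and 8.61 in KO chow and 27, 22.3 and 36.2 in KO CDAHFD. KO chow was below all other libraries, by a log2 difference of -1.89 (SE 0.31 and adjusted p = 0.000378) against WT chow, and the diet raised Nr1i3 in KO by 1.69 (SE 0.31 and adjusted p = 0.01). Among the CAR and PXR targets, KO chow was also the lowest group for Cyp2c37, Cyp2c50 and Cyp2c54, and the highest for Cyp2b10, Cyp2c55 and Cyp3a11. For Cyp2b10 that place of KO chow is tied to the member rule. For Cyp2c29 it lay between WT chow and the CDAHFD groups, and for Cyp3a13 it overlapped with WT chow. Outside that list, KO chow was lowest for Cyp1a2 and Cyp2e1. A link of these orders to Nr1i3 was not tested. Nr1i2, which encodes PXR, was at 72.4 to 95 CPM in WT chow, 48.1 to 57.9 under CDAHFD in WT and 58.3 to 74.8 in KO chow. It fell in WT CDAHFD, by a log2 difference of -0.64 (SE 0.12 and adjusted p = 0.000815), and its value in KO chow was -0.29 (SE 0.14 and adjusted p = 0.114). Rxra, the partner of CAR, PXR and PPARα, fell by a log2 difference of -0.9979 in KO chow and -0.83 in WT CDAHFD (adjusted p = 0.000712 and 0.000593). Of 13 hepatocyte regulators 7 fell in KO chow and 6 in WT CDAHFD (17% and 25% of all genes), and none rose. Hnf4a was at 654, 547, 998 and 1150 CPM in WT chow, 556, 435 and 457 in WT CDAHFD, 384 and 491 in KO chow and 459, 440 and 381 in KO CDAHFD. It fell by a log2 difference of -0.94 in KO chow and -0.7958 in WT CDAHFD (adjusted p = 0.0133 and 0.0107), though WT chow and WT CDAHFD overlapped. In WT chow and KO chow the libraries with high Dbp had the highest Hnf4a, and in KO CDAHFD the one with high Dbp had the lowest.

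P450 enzymes share their electron transfer partners. Of 7 such genes, 5 fell and 1 rose in both comparisons (of all genes, 17% fell and 22% rose in KO chow, and 25% and 26.1% in WT CDAHFD), with medians of -0.415 and -0.632. Por, the reductase, was at 109, 97.2, 254 and 206 CPM in WT chow, 165, 115 and 102 in WT CDAHFD, 214 and 284 in KO chow and 117, 97.2 and 300.0 in KO CDAHFD. The groups overlapped apart from WT CDAHFD and KO chow, and the highest libraries of WT chow, KO chow and KO CDAHFD were those with high Dbp. The difference for Por was 0.58 (SE 0.44 and adjusted p = 0.327) in KO chow and -0.39 (SE 0.40 and adjusted p = 0.447) in WT CDAHFD. Cyb5b, an outer mitochondrial cytochrome b5, fell by a log2 difference of -0.83 in KO chow and -0.91 in WT CDAHFD (adjusted p = 6.64e-05 and 5.23e-06), while Cyb5r1, a cytochrome b5 reductase, rose by 1.78 and 1.13 in the same order (adjusted p = 3.66e-05 and 0.000397). Of 12 genes of haem synthesis and breakdown, 1 rose and 5 fell in KO chow, and 2 rose and 6 fell in WT CDAHFD, against 39% and 51.1% of all genes called in either direction. Hmox1, the haem oxygenase, was the one that rose in KO chow, at 16.4 to 30.1 CPM in WT chow libraries, 104 to 144 in those of KO chow and 97.1 to 125 in those of WT CDAHFD (2.53 in KO chow and 2.41 in WT CDAHFD, adjusted p = 2.67e-06 and 9.77e-07). Macrophages also express Hmox1, and the part of the higher macrophage markers in it was not tested. Alas1, the first enzyme of haem synthesis, ranged from 34.3 to 503 CPM within WT chow, and its groups overlapped.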

How the data were processed

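Liver RNA of 12 mice was sequenced from poly-A selected, non-directional libraries. Per the labels and the submitters' processing notes, reads were checked with FastQC 0.11.5 and aligned with STAR 2.7.3a to GRCm38, and DESeq2 is named without a version; the counting program and the annotation release are not given in the sources used here. The authors deposited a table of raw read counts per gene for the whole series, with 55357 rows and no normalization, of which 30104 had a count and 52081 were matched to a symbol. Coordinates and exon lengths came from the GENCODE vM21 annotation of GRCm38. Genes were tested with edgeR 4.0.16 (R 4.3.3; TMM scaling, filterByExpr by group, 1 mean per group over all 12 libraries so that the spread is shared, quasi-likelihood F test, Benjamini-Hochberg adjustment over 17358 genes, called at 0.05). Because 2 KO chow libraries are few, their spread rests on the other groups, wholly so in fits that leave 1 of them, and p-values measure the spread between libraries, which the labels call separate samples. The SE is the absolute log2 fold change over the root of F. A floor of 3 counts per library bounds folds against groups at 0, and 95% intervals of ratios cover counting error only. Subfamily sums replaced their members in a second fit. The script was tested on simulated data. DESeq2 1.42.0, RLE and total-count scaling, no filter, a replicate block, a clock score and leaving out each library were alternatives, as was leaving out the 4 libraries with the highest Dbp, chosen after seeing the data. The members and gene lists were chosen with earlier results of these data known. Values in every library are given for 28 members: the highest per kb in WT chow of each subfamily, the 5 largest called changes each way against WT chow, and up to 5 each way by adjusted p in the other comparisons. The remaining members, the receptor and pathway genes and the examples from lists were named to fill their groups. Shared transcript bases were counted in windows of 100 bases; promoters came from RefSeq, and 6 members had no entry there.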

Additional observations from a re-analysis of the deposited data

Results flagged for a closer look

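In WT chow, the 1 group with enough libraries for such a test, 1 library lay apart from the other 3 in 3 of 28 members, those chosen by the rule for values in every library (Dixon's test at the 95% level, which by chance picks about 1 in 20). Cyp2b9 was at 4.785 CPM in WT chow 2, against 0 to 0.3001 in the others. Cyp2a22 was at 0.9003 CPM in WT chow 3, against 0.1941 to 0.2833. Cyp2b13 was at 0.03148 CPM in WT chow 2, which is 1 count, against 0 in the others.

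The change with CDAHFD differed between KO and WT in 29 of the 45 members by edgeR's interaction term, and the 5 with the smallest adjusted p in each direction (1.58e-07 to 0.00169) are given here. It was more positive in KO for Cyp2c37 (log2 difference 6.185), Cyp2c54 (5.464), Cyp2c50 (4.638), Cyp2u1 (2.668) and Cyp1a2 (2.53). It was more negative in KO for Cyp2b10 (-11.64, a fitted value that depends on the small count added to WT chow libraries at 0), Cyp2a4 (-5.997), Cyp3a11 (-4.312), Cyp2c55 (-3.644) and Cyp1b1 (-2.604). Cyp2b10 became a member only through KO chow, so its value here is tied to the member rule.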

How the results depend on the processing

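Among the values of single members under an alternative, 1413 kept their direction and their side of the threshold, 44 kept the direction and lost the call, 6 gained one and 14 turned. KO CDAHFD against WT CDAHFD had 1 member called, but 0 with scaling by total count, 3 with DESeq2, 6 with no filter, 2 with the clock score and 3 without the 4 libraries with the highest Dbp (chosen after seeing the data); its 0 subfamily sums became 1 with DESeq2 and 2 with no filter. The subfamily sums called in WT CDAHFD went from 11 to 7 with scaling by total count, and those in KO CDAHFD against KO chow from 6 to 3 without the 4 high-Dbp libraries. Values that turned with scaling by total count were those of Cyp1a2 in WT CDAHFD (0.147) and, in KO chow, of Cyp2r1 (0.105) and Cyp3a25 (0.298). Cyp3a25 in KO chow, not called, was also 0.267 with the replicate block and 0.254 without the high-Dbp libraries. Without the high-Dbp libraries, Cyp2b9 was -0.968 in KO chow and -0.321 in WT CDAHFD, and Cyp2s1 0.197 in KO chow. Leaving out 1 library at a time, uncalled values ranged in KO chow from -0.115 to 4.06 for Cyp2b9, -1.45 to 0.122 for Cyp2s1 (0.034 without WT chow replicate 4), -0.0376 to 1.2 for Cyp2g1 and -0.32 to 0.0724 for Cyp3a25, and in WT CDAHFD from -0.00516 to 0.857 for Cyp2s1. Cyp2b9 was called without WT chow replicate 2. The cause was not tested. Leaving out each library in turn gave 9 to 12 members higher and 17 to 23 lower in KO chow, 11 to 12 and 25 to 27 in WT CDAHFD, 0 to 2 called in KO CDAHFD against WT CDAHFD, 3 to 8 higher and 4 to 11 lower in KO CDAHFD against KO chow, 9 to 14 and 24 to 27 in KO CDAHFD against WT chow, 10 to 20 called in KO chow against WT CDAHFD and 26 to 32 in the interaction. Subfamily sums called were 9 to 10, 9 to 11, 0 to 0 and 2 to 7 in the first 4 comparisons. The replicate numbers did not pair the libraries (correlation of deviations -0.242 to 0.266 over 15 same-number pairs, 3 of them over 0.1); with a replicate block, 11 members were higher and 21 lower in KO chow and 12 and 25 in WT CDAHFD. Members near 0 in WT chow are limited by depth.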
